A study of Canis lupus familiaris with 34 samples.

Results

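CD48 and the SLAM receptors (signaling lymphocytic activation molecules) are cell surface proteins of blood cells. The 7 receptors examined were CD48, CD244, LY9, SLAMF1, SLAMF6, SLAMF7 and CD84, and SH2D1A, the adaptor that most of them signal through, was taken with them. The 8 genes were chosen by name, and each was read from the array probe sets that carry its symbol and no other. Of the 8 genes, 7 had such a probe set, with 13 probe sets among them, out of 15115 genes and 42860 probe sets in the whole data set. SLAMF6 had none and has no value here. The genes were picked in the knowledge that CD48 differed between tumor types in these data, so their levels by tumor type are given as descriptions, without a test.

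The arrays (Affymetrix Canine_2, 1 per dog or cell line) measured RNA of 34 canine samples. The 16 primary lymphoid samples came from 3 leukemias, of which 1 was acute lymphoblastic (Rascal, a golden retriever mix) and 2 chronic lymphocytic (Maddle and Forrest), and from 13 lymphomas, namely 6 T-zone lymphomas, 6 diffuse large B cell lymphomas and 1 marginal zone B cell lymphoma (Bitsy). All dogs with lymphoma or chronic leukemia were golden retrievers. The 18 cultured samples were 10 hemangiosarcoma lines, cultures from 3 splenic hematomas and 5 osteosarcoma lines from golden retrievers. Of the hemangiosarcoma lines, 6 came from golden retrievers, and 4 from a Rottweiler, a Portuguese water dog, a Dalmatian and a golden retriever cross. The hematomas were from a golden retriever, a standard poodle and a Keeshond. For tumors the authors used the earliest passages they had, and the hematoma cultures were of low passage. The labels give no ages. Tumor lineage and culture differ together between the primary lymphoid and the cultured samples, and their parts cannot be told apart.

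SLAM receptors belong to the CD2 branch of the immunoglobulin superfamily, and most of them bind a copy of themselves on the neighboring cell. CD48 is the exception in the group: it is held in the membrane by a lipid anchor, has no tail to signal with, and serves as the ligand of CD244 (2B4), a receptor of NK cells and some T cells. The tails of most of the other receptors carry tyrosine motifs that bind the small SH2 domain protein SAP, the product of SH2D1A, which brings in the kinase FYN. In people, loss of SAP causes X-linked lymphoproliferative disease. In the dog gene table the receptors stand side by side on chromosome 38, in the order CD244, LY9, SLAMF7, CD48, SLAMF1, CD84 and SLAMF6, and SH2D1A lies on the X chromosome.

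Values are log2 intensities after RMA, a method that corrects background, gives the arrays one distribution and sums the probes of a probe set. The medians of the arrays lay between 5.57 and 5.77, and a probe set below the median of its array is close to the background of such arrays. Each gene is represented by its main probe set, meaning its brightest one on average across the arrays. Levels of different genes were not compared, since probe sets differ in brightness. White blood cell markers parted the 2 classes. The mean of 4 markers of all white blood cells was 9.80 to 12.6 on primary lymphoid arrays and 4.31 to 5.18 on cultured arrays. Of 7 endothelial markers, 5 (PECAM1, CDH5, TEK, CLEC14A and EMCN) were above the array median on none of the 10 hemangiosarcoma arrays, VWF was above it on 1 and KDR on 8, and the list averaged 4.42 to 4.83. KDR read 5.36 to 7.18 in hemangiosarcoma lines and 5.36 to 7.42 over all cultured samples. In the hemangiosarcoma lines 6 fibroblast and mural markers averaged 10.7 to 12.9. Markers of T and B cells are given with the lymphoid tumors. In bulk RNA, fewer cells of a type and less RNA per cell cannot be told apart.

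**Figure D1:**
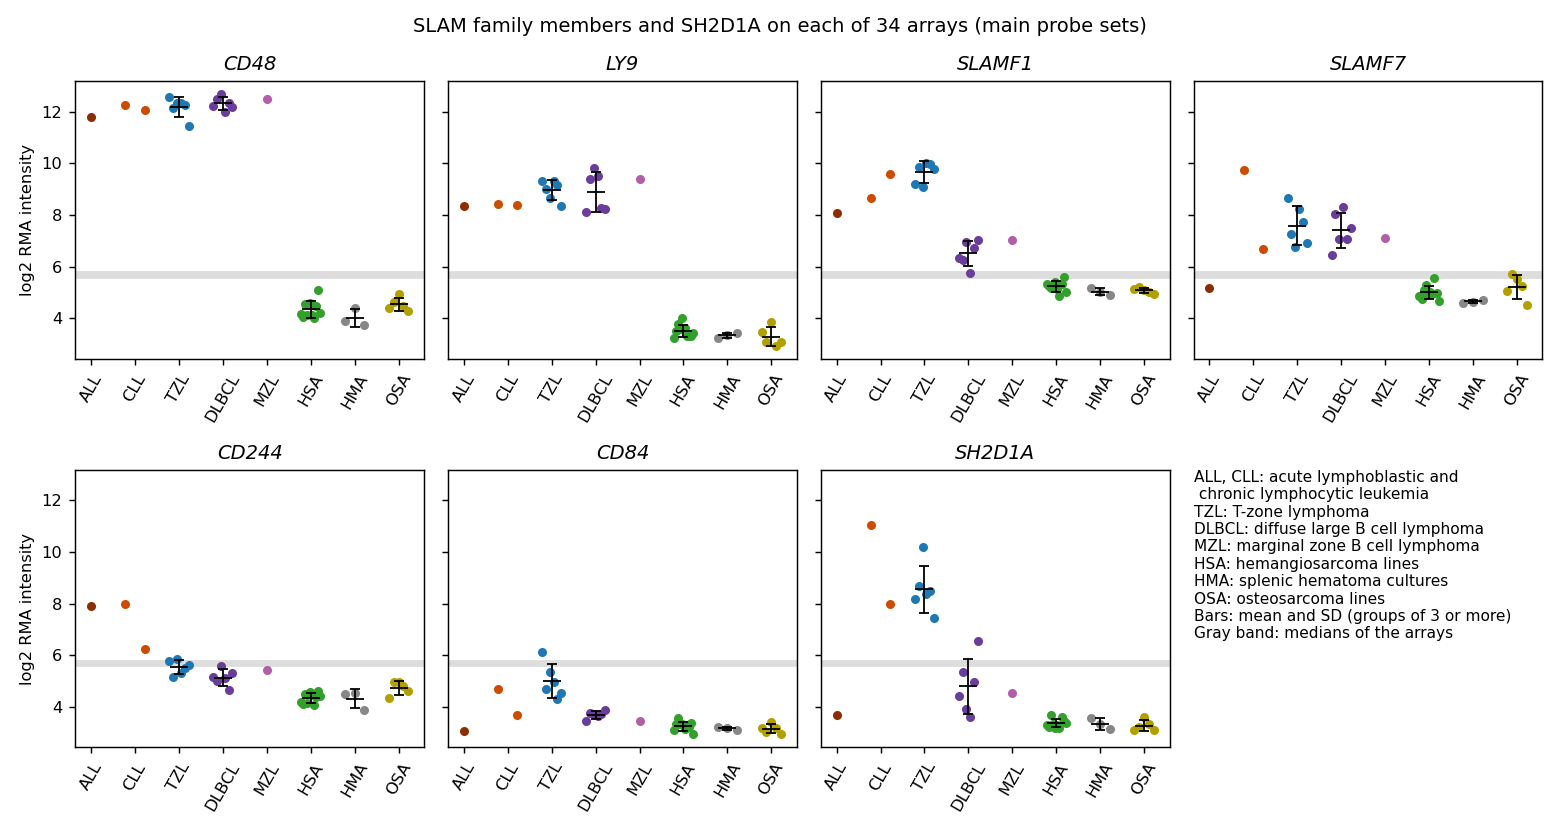
Log2 RMA intensity (vertical axes) of the main probe set of each measured gene on each of the 34 arrays, by tumor type. Bars give the mean and SD of groups of 3 or more arrays, and the gray band spans the medians of the arrays. CD48 and LY9 stand far above the band on all 16 primary lymphoid arrays and below it on all 18 cultured arrays, while SLAMF1, SH2D1A and CD84 differ among the lymphoid tumors.

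CD48 was bright on every primary lymphoid array and near background on every cultured one. Its main probe set read 11.45 to 12.69 (median 12.26) on the 16 primary lymphoid arrays, against 3.74 to 5.08 (median 4.33) on the 18 cultured arrays, and the 2 ranges lay more than 6 log2 units apart. The difference of the means was 7.88 ± 0.11 (SE, n = 16 and 18). Since the cultured values were near background, this difference of intensities gives no exact ratio of RNA. A second probe set of CD48 gave 8.09 ± 0.12, and the probe sets ran together over the 34 arrays (Pearson r = 0.997) and over the 16 primary lymphoid arrays (r = 0.922).

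CD48 varied little from one lymphoid tumor to the next. By mean level the order was marginal zone lymphoma (12.49, 1 array), diffuse large B cell lymphoma (12.31 ± 0.25, SD, n = 6), T-zone lymphoma (12.17 ± 0.38, n = 6), chronic lymphocytic leukemia (12.26 in Maddle and 12.08 in Forrest) and acute lymphoblastic leukemia (11.78, 1 array). Every value in the order lay within the range of T-zone lymphoma (11.45 to 12.57) or of diffuse large B cell lymphoma (11.996 to 12.69), so neighbors were not set apart. Osteosarcoma (4.54 ± 0.26, n = 5), hemangiosarcoma (4.34 ± 0.34, n = 10) and hematoma (4.02 ± 0.35, n = 3) followed after a gap, and their ranges overlapped. The lowest lymphoid value belonged to the T-zone lymphoma Fire (11.45), the only lymphoid array under the value of the acute leukemia. A T cell marker list of 6 measured genes, by contrast, averaged 11.2 to 11.8 in T-zone lymphomas and 8.21 to 9.24 in diffuse large B cell lymphomas, where CD48 was nearly level (-0.14 ± 0.19, SE, T-zone minus diffuse large B cell, n = 6 each).

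LY9 (CD229), a self-binding receptor of T and B cells, followed the pattern of CD48 between the main classes. It read 8.11 to 9.81 (median 8.84) on the primary lymphoid arrays and 2.94 to 4.01 (median 3.40) on the cultured arrays, with no overlap. The difference was 5.43 ± 0.15 (SE, n = 16 and 18). A second probe set gave 4.82 ± 0.10. The remaining one was almost flat (0.27 ± 0.14), was above the array median on 3 of the 34 arrays and ran against the main one over the 16 lymphoid arrays (r = -0.524), so the mean of all 3 probe sets gave a difference of 3.51. Among lymphoid tumors LY9 was 9.41 in the marginal zone lymphoma, 8.97 ± 0.39 in T-zone and 8.89 ± 0.76 in diffuse large B cell lymphoma (SD, n = 6 each), and 8.35 to 8.41 in the 3 leukemias, differences that did not exceed the spread among the lymphomas. The diffuse large B cell lymphomas fell into values of 8.11, 8.24 and 8.27 (Benson, Chieftain and Snuggles) and of 9.40, 9.49 and 9.81 (Cooper, Kaycee and Sally), with none between.

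SLAMF1 (CD150), a self-binding receptor that in people is also the entry receptor of measles virus, was the other gene whose groups did not overlap. Primary lymphoid arrays read 5.77 to 10.02 (median 8.36) and cultured arrays 4.85 to 5.60 (median 5.15), a difference of 2.99 ± 0.36 (SE). The lowest lymphoid value, 5.77 in the diffuse large B cell lymphoma Kaycee was close to the highest cultured value, 5.60 in the hemangiosarcoma line ChadP9. SLAMF7 (CRACC), a receptor of NK cells, plasma cells and activated lymphocytes that signals without SAP, read 5.16 to 9.74 and 4.49 to 5.69 in the same order, a difference of 2.41 ± 0.26. Only the acute leukemia Rascal (5.16) reached into the cultured range of this main probe set. A second probe set of SLAMF7 overlapped widely, with 4.19 to 6.86 on primary lymphoid and 4.10 to 5.65 on cultured arrays. The remaining one read 2.99 to 7.58 and 2.58 to 3.13. The mean of all 3 probe sets gave a difference of 1.64. SH2D1A read 3.60 to 11.06 on primary lymphoid and 3.09 to 3.67 on cultured arrays (3.38 ± 0.57). Only Kaycee (3.60) lay within the cultured range, and Rascal (3.70) lay just above it.

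CD244 and CD84 were dim. CD244 was above the array median on 5 of the 34 arrays and CD84 on 1. CD244 read 4.65 to 7.97 on primary lymphoid and 3.89 to 4.97 on cultured arrays (1.27 ± 0.23, SE). CD84, a self-binding receptor also found on platelets and myeloid cells, read 3.08 to 6.13 and 2.955 to 3.58 (0.98 ± 0.20). For these 2 genes the size of a difference is therefore poorly measured.

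In all, 4 of the 7 measured genes (CD48, LY9, SLAMF1 and SLAMF7) passed the filter on low values between primary lymphoid and cultured samples, which asks that the probe set lie above the array median on at least 16 arrays. Groups did not overlap, with lymphoid higher, for 3 of the 7. Among all 9339 genes that passed the filter the share was 3.17%, and 4.42% were lower without overlap. The tumor types had led to the choice of the genes, so nothing is read from that contrast.

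The signaling partners of the receptors were tested as a list, which was drawn up by function, though with earlier results of these data known. It held 27 genes: relatives of the receptors, the second SAP-like adaptor, kinases, phosphatases and downstream signaling genes. Of these, 24 had a probe set and 21 passed the filter, and 14 differed between primary lymphoid and cultured samples at an adjusted p of 0.001 (limma, Benjamini-Hochberg over 22063 probe sets), 11 higher and 3 lower in the lymphoid samples. Of all genes tested, 43.2% were called, 21.5% higher and 21.7% lower. The median difference of the 21 was 0.58, against 0.08 over all genes tested.

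The largest differences belonged to genes of blood cells. PTPN6 (SHP-1), a phosphatase that binds inhibitory tails, averaged 10.96 ± 0.92 in primary lymphoid and 4.85 ± 0.29 in cultured samples (SD, n = 16 and 18), 6.11 ± 0.22 higher (SE, limma, adjusted p = 3.87e-23). Its cultured mean lay below the array medians, so the size of this difference gives no exact ratio of RNA. LCK, the kinase of T cell receptor signaling, was 5.87 ± 0.51 higher (adjusted p = 2.75e-12) and VAV1, an exchange factor downstream of SAP and FYN, 4.71 ± 0.14 higher (adjusted p = 3.08e-26). PLCG2, the phospholipase of B cell and NK cell signaling, was 4.47 ± 0.36 higher, and CD2, the relative of the family on T and NK cells, 4.46 ± 0.27 higher. In the other direction, PTPN11 (SHP-2), a phosphatase of most cells, was lower by -2.21 ± 0.23, followed by the Ras GTPase activating protein RASA1 (-1.07 ± 0.19) and the adaptor DOK1 (-0.63 ± 0.15). FYN itself, which many cell types use, gave no call (-0.29 ± 0.37, adjusted p = 0.506). SH2D1B, which encodes the SAP-like adaptor EAT-2, did not pass the filter.

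**Figure D2:**
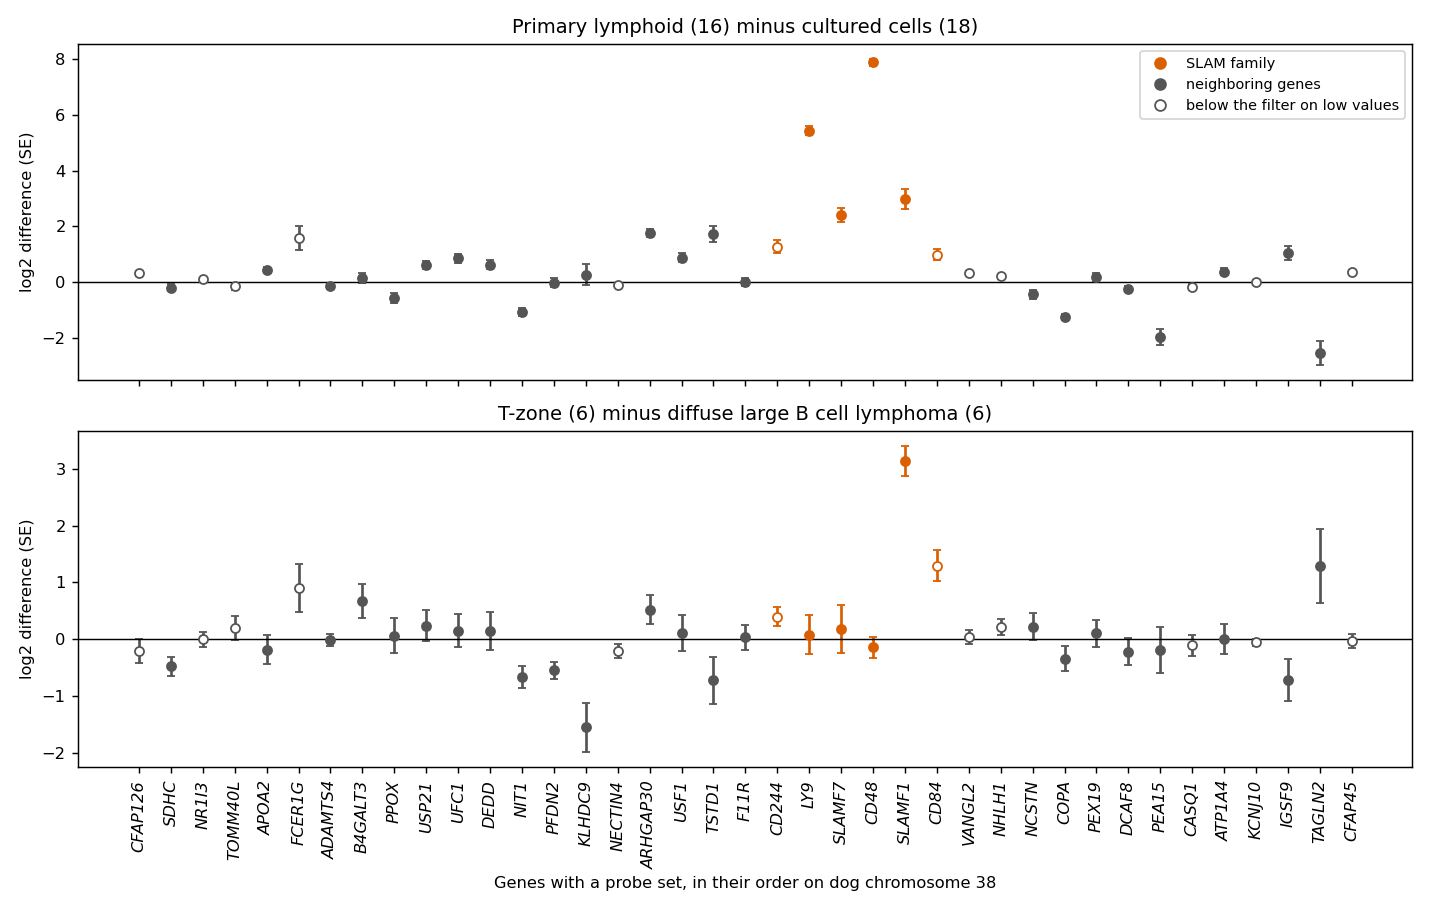
Log2 difference and SE (vertical axes) of the SLAM genes and of the other genes near them, in their order on chromosome 38 (spacing not to scale), for primary lymphoid minus cultured samples (top) and T-zone minus diffuse large B cell lymphomas (bottom). Open points did not pass the filter on low values. In the top panel CD48 (7.88) and LY9 (5.43) stand above all genes around them, and in the bottom panel SLAMF1 (3.15) does.

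The genes around the receptors, taken as a set, differed in both directions. Within 0.5 Mb of the cluster the gene table holds 48 other protein coding genes, of which 33 had a probe set and 23 passed the filter. Of the 23, 6 were higher and 4 lower in primary lymphoid samples, near the 43.2% called among all genes. Without overlap, 1 was higher and 1 lower, where the shares of all genes were 3.17% and 4.42%. The median difference of the 23 was 0.139, against 0.079 over all genes tested. TAGLN2, an actin binding protein, was the lowest (-2.54 ± 0.41, SE, limma, adjusted p = 2.03e-06). F11R, a junction protein gene next to CD244, gave no call (0.01 ± 0.14). The 4 clustered SLAM genes that passed the filter were 2.41 to 7.88 higher and the other 2, CD244 and CD84, 1.27 and 0.98. These genes were chosen for this contrast, so their place among the neighbors is a description.

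T-zone lymphoma and diffuse large B cell lymphoma, the largest lymphoid groups, are tumors of T and of B cells. SLAMF1, SH2D1A and CD84 were higher in all 6 T-zone lymphomas than in any of the 6 diffuse large B cell lymphomas, and the other genes overlapped. SLAMF1 read 9.18, 9.86, 9.09, 10.02, 9.98 and 9.79 in the T-zone lymphomas Newman, Niki, Rose, Shilo, Thunder and Fire, against 6.32, 6.25, 6.96, 5.77, 6.71 and 7.03 in the diffuse large B cell lymphomas Benson, Cooper, Sally, Kaycee, Snuggles and Chieftain. The groups were far apart. The difference was 3.15 ± 0.26 (SE, n = 6 each), 8.85-fold in intensity. The lowest diffuse large B cell values lay close to the cultured range (4.85 to 5.60), so this gives no exact ratio of RNA.

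SH2D1A, the adaptor, showed the widest spread. In the same order of dogs it read 8.19, 8.66, 10.18, 8.35, 8.49 and 7.42 in T-zone lymphomas and 4.41, 5.36, 3.94, 3.60, 4.96 and 6.54 in diffuse large B cell lymphomas. All T-zone lymphomas were well above the array median, and of the B cell lymphomas only Chieftain was. The difference was 3.75 ± 0.57 (SE), and the second probe set of SH2D1A gave 3.71 ± 0.54 (r = 0.986 with the main one over 16 arrays).

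CD84 read 6.13, 4.70, 5.35, 4.95, 4.31 and 4.54 in T-zone lymphomas and 3.44, 3.78, 3.72, 3.65, 3.71 and 3.885 in diffuse large B cell lymphomas, 1.30 ± 0.28 apart. Newman alone was above the array median, so CD84 did not pass the filter. Of the 5 genes that did, 2 had groups that did not overlap, both with T-zone higher, and the share among 9237 genes was 4.55%, with 4.30% lower in the same way. As before, the choice of genes rests on tumor type, and nothing is read from the count. LY9 (0.08 ± 0.35), SLAMF7 (0.18 ± 0.42), CD48 (-0.14 ± 0.19) and CD244 (0.40 ± 0.17) had groups that overlapped.

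**Figure D3:**
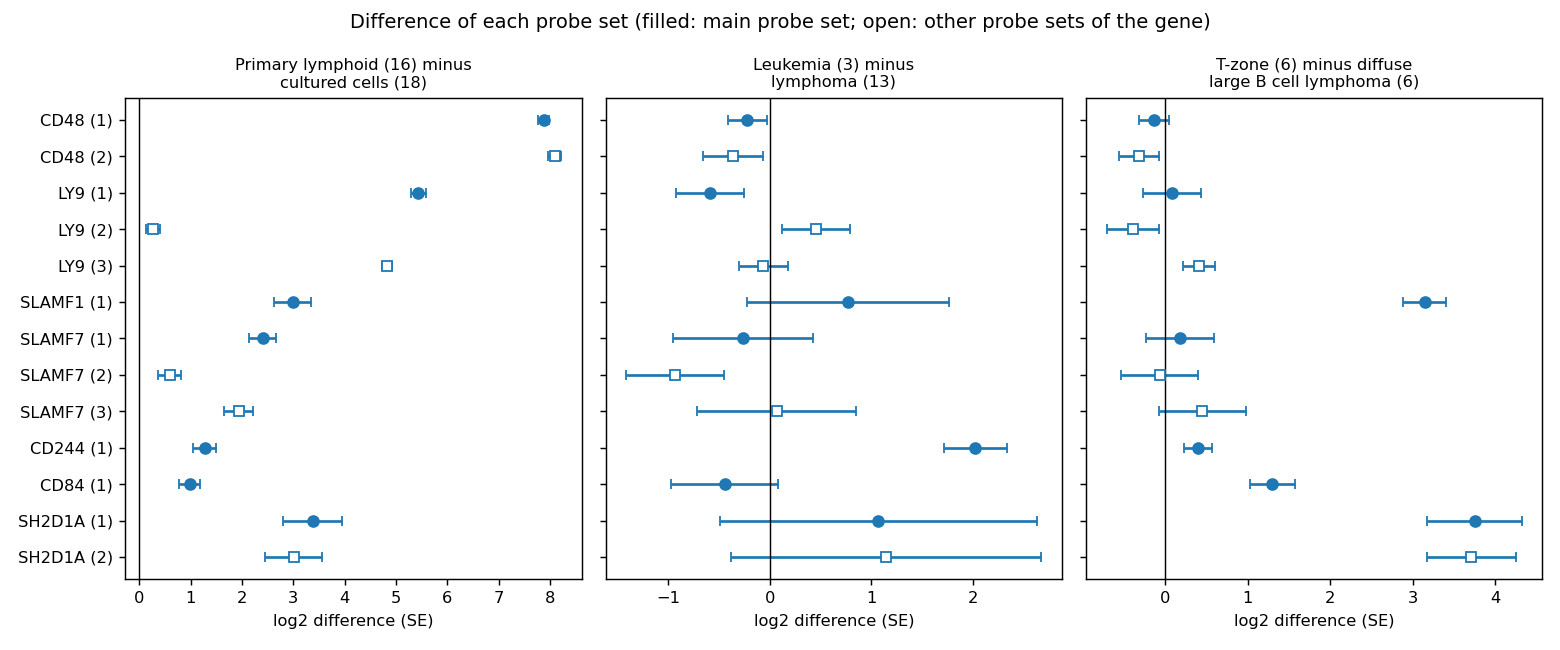
Log2 difference and SE (horizontal axes) of all 13 probe sets of the 7 measured genes in 3 contrasts, with filled circles for main probe sets and open squares for the others. Among T-zone minus diffuse large B cell differences, SLAMF1 (3.15), both probe sets of SH2D1A (3.75 and 3.71) and CD84 (1.30) stand to the right, and among leukemia minus lymphoma differences CD244 (2.03) does.

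The means of the T cell list and of the plasma cell list separated the same groups. The 6 T cell markers averaged 11.2 to 11.8 in T-zone and 8.21 to 9.24 in diffuse large B cell lymphomas, where the highest value was again that of Chieftain. All 6 markers were above the array median on all T-zone arrays, and 5 on all diffuse large B cell arrays. Of the single T cell markers, CD3E, CD5, CD28 and LCK did not overlap, while CD3D and CD3G did. Their lowest T-zone values were 12.499 and 11.46 (Newman), and their highest diffuse large B cell values 12.518 and 11.621 (Cooper). B cell markers (6 measured of 7) averaged 6.60 to 8.81 in T-zone and 8.64 to 9.13 in diffuse large B cell lymphomas, and the pan-B marker MS4A1 (CD20) still had a median of 10.2 in T-zone lymphomas, with the lowest value (7.68) in Fire. Plasma cell markers (4 measured of 5) averaged 8.43 to 10.05 in T-zone and 7.83 to 8.38 in diffuse large B cell lymphomas, without overlap. Singly, only XBP1 did not overlap (11.1 to 12.6 against 9.20 to 10.7), while PRDM1 and JCHAIN did. SDC1 overlapped too and leaned the other way, with 5.02 to 5.95 in T-zone and 5.55 to 6.17 in diffuse large B cell lymphomas. For SLAMF1 and the T cell list Pearson r was 0.416 over the 6 T-zone and 0.235 over the 6 diffuse large B cell lymphomas, for SH2D1A 0.382 and 0.658, and for CD84 -0.243 and 0.556. For the plasma cell list over the same groups r was 0.458 and 0.028 for SLAMF1, -0.974 and 0.52 for SH2D1A, and -0.125 and 0.201 for CD84. The actin control described with the leukemias read -0.31 to -0.05 in the T-zone lymphomas Newman, Niki, Rose and Shilo, below all diffuse large B cell lymphomas (0.67 to 3.46). It read 4.03 in the T-zone lymphoma Thunder and 3.30 in Fire. The part of these values in the differences was not tested.

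**Figure D4:**
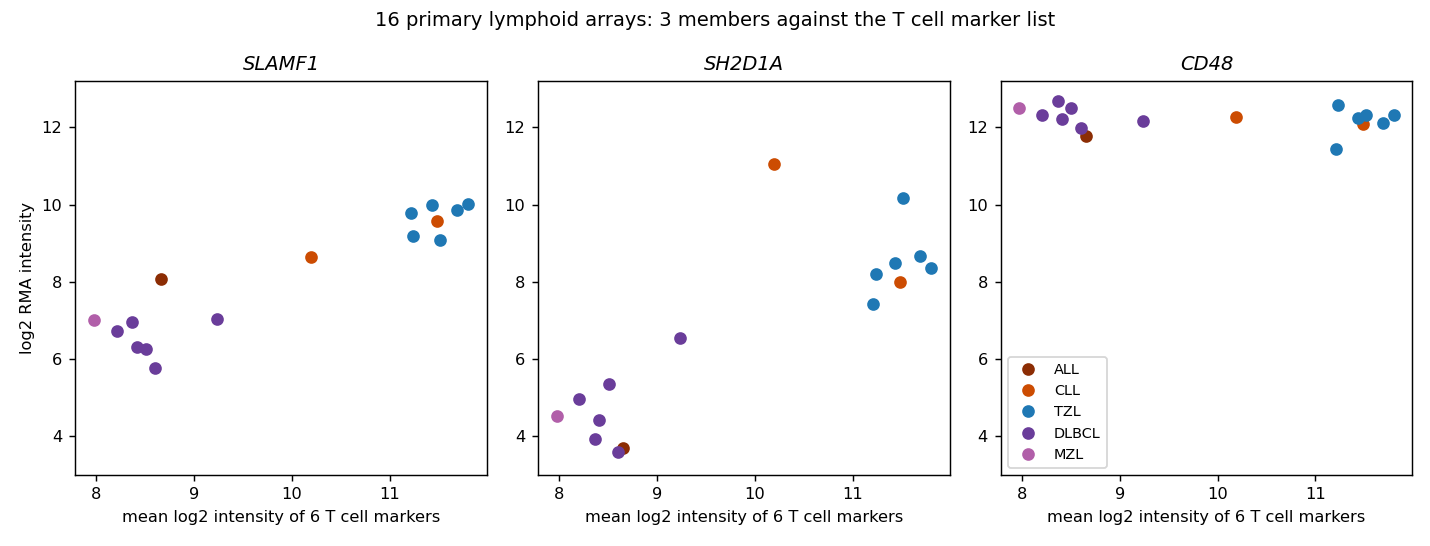
Log2 RMA intensity of SLAMF1, SH2D1A and CD48 (vertical axes) against the mean of 6 T cell markers (horizontal axes) on the 16 primary lymphoid arrays, colored by tumor type. T-zone lymphomas and diffuse large B cell lymphomas form separate clouds for SLAMF1 and SH2D1A, the leukemia Rascal lies high for SLAMF1 and low for SH2D1A, and CD48 stays between 11.45 and 12.69 throughout.

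Among the partners, 11 of 23 tested differed between T-zone and diffuse large B cell lymphomas at an adjusted p of 0.05 (limma, over 21763 probe sets), 8 higher and 3 lower, where 19.6% of all genes were called, 9.54% higher and 10.1% lower. The kinase LCK had the highest difference. It averaged 12.05 ± 0.28 in T-zone and 7.80 ± 0.74 in diffuse large B cell lymphomas (SD, n = 6 each), 4.25 ± 0.30 higher (SE, limma, adjusted p = 1.56e-06). PRKCQ (PKC-theta), which SAP also recruits, was 3.98 ± 0.42 higher, and FYN, the partner of SAP, 2.72 ± 0.27 higher (adjusted p = 2.15e-05).

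The T cell adaptor LAT was 3.08 ± 0.30 higher, the adaptor DOK2 2.74 ± 0.24, and PLCG1, the phospholipase of T cells, 2.34 ± 0.47. CD2 (1.81 ± 0.26) and PIK3R1 (1.46 ± 0.30), a regulatory subunit of PI3 kinase, were the other genes that rose. PLCG2 (-2.07 ± 0.37, adjusted p = 0.00173), LYN (-1.61 ± 0.40, adjusted p = 0.0134), a kinase of B and myeloid cells, and RASA1 (-0.96 ± 0.31, adjusted p = 0.0444) were lower in T-zone lymphomas. The call of RASA1 was lost in 13 of 20 alternatives. LCK is also in the T cell marker list. Of the 23 neighbors of the receptors tested, KLHDC9 (-1.55 ± 0.39) and NIT1 (-0.66 ± 0.21) were lower and none was higher, with 1 to 3 called when 1 array was left out.

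In the leukemias, CD244 stood out. It read 7.91 in the acute leukemia Rascal and 7.97 and 6.24 in the chronic leukemias Maddle and Forrest, against 4.65 to 5.85 (median 5.32) in the 13 lymphomas. All 3 leukemias were above every lymphoma. The difference was 2.03 ± 0.31 (SE, n = 3 and 13), and 2.60 without Forrest. It was the only one of the 6 SLAM genes past the filter whose groups did not overlap, and the share of all 10351 genes with leukemias higher and no overlap was 1.54%, and with leukemias lower 1.68%. Tumor type had chosen the genes, so nothing is read from this share.

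SH2D1A and SLAMF7 differed widely among the 3 leukemias. SH2D1A was 3.70 in Rascal, at the level of cultured cells, 11.06 in Maddle, the highest of all arrays, and 7.98 in Forrest. SLAMF7 was 5.16 in Rascal, 9.74 in Maddle and 6.68 in Forrest, against 6.46 to 8.66 in lymphomas, so its mean difference was -0.27 ± 0.69, -1.54 without Maddle and 0.75 without Rascal. The difference of SH2D1A was 1.07 ± 1.57, -0.67 without Maddle and 3.01 without Rascal. SLAMF1 was 8.08, 8.65 and 9.58 in the same order, between T-zone and diffuse large B cell levels or within the T-zone range. CD48 (-0.22 ± 0.19), LY9 (-0.59 ± 0.34) and CD84 (-0.45 ± 0.53) overlapped with the lymphomas.

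Of the marker lists, that of B cells separated the 3 leukemias from all lymphomas, averaging 5.66 to 5.73 in the leukemias and 6.60 to 9.13 in the lymphomas. The T cell list averaged 8.66 in Rascal, 10.2 in Maddle and 11.5 in Forrest, against 7.97 to 11.8 in the lymphomas. The labels give no cell lineage for the chronic leukemias, and both arrays averaged high on the T cell list and low on the B cell list. Single markers went both ways. Of the 6 B cell markers 2 were above the array median on both arrays and 3 on neither. CD79A, among the 2, read 8.28 in Maddle and 7.88 in Forrest. Of the 6 T cell markers 5 were above it on both, and CD28 was below it in Maddle (5.33). NK and cytotoxic markers (5 measured of 7) averaged 11.5 in Maddle, with the granzyme GZMB at 14.4, and 7.43 in Forrest, 5.78 in Rascal and 4.84 to 7.38 in lymphomas. Rascal carried progenitor markers (8.51, against 4.86 to 6.17 in lymphomas), and the myeloid list averaged 7.12 to 8.43 in leukemias and 6.27 to 8.08 in lymphomas. An actin control, a measure of RNA length, read 3.44 to 3.92 higher at its 3′ end than at its 5′ end in the leukemias, and from -0.31 to 4.03 in the lymphomas. The part of these in the level of CD244 was not tested.

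None of 23 partners was called between leukemia and lymphoma at an adjusted p of 0.05 (limma, over 24896 probe sets), where 2.08% of all genes were (1.21% higher and 0.869% lower). Of the 23, 5 had an unadjusted p under 0.05, all lower in leukemias: VAV1 (-0.93 ± 0.24, adjusted p = 0.0542), PTPN6 (-1.50 ± 0.43, adjusted p = 0.075), PLCG2, UVRAG and NFKB1. VAV1 and PTPN6 were called after quantile normalization and with array weights, and together with PLCG2 in 1 fit over all 34 arrays. Calls over all probe sets rose in these settings too, from 528 to 606, 3646 and 3159 in the same order. Nothing about the partners is therefore read from them. Of 24 neighbors of the receptors, 2 were higher in leukemias. FCER1G, the signaling chain of Fc receptors on NK and myeloid cells, averaged 8.83 ± 0.60 in leukemias and 4.77 ± 0.81 in lymphomas (SD, n = 3 and 13), 4.06 ± 0.47 higher (SE, limma, adjusted p = 0.000124), and TAGLN2 was 3.09 ± 0.71 higher (adjusted p = 0.0319). With any 1 leukemia left out, 1 of the neighbors was called.

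No SLAM gene separated the cultured tumor types. In hemangiosarcoma lines, hematoma cultures and osteosarcoma lines alike, the main probe sets lay below the array median on all arrays except 1 of SLAMF7, and none of the 7 genes passed the filter. Hemangiosarcoma minus hematoma differences ran from 0.03 (SH2D1A) to 0.36 (SLAMF7), and for CD48 the value was 0.32 ± 0.22 (SE, n = 10 and 3). All 7 overlapped between the groups, where 1.19% of all genes were higher and 0.502% lower without overlap. CD48 ceased to overlap without the hematoma Baxter (0.52) and SLAMF7 without Kylie (0.39). Of 19 partners tested none was called at an adjusted p of 0.1 (limma) and none had an unadjusted p under 0.05, and 0.256% of all genes were called, 0.143% higher and 0.113% lower.

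Against osteosarcoma the main probe sets overlapped again, where 3.09% of all genes were higher and 2.99% lower without overlap, with differences from -0.39 (CD244) to 0.22 (LY9). CD244 ceased to overlap without the osteosarcoma line OSCA20 (-0.49). One probe set of SLAMF7 disagreed with the other 2: it read 4.96 to 5.65 in hemangiosarcoma and 4.10 to 5.04 in osteosarcoma lines, 0.94 ± 0.15 higher (SE, n = 10 and 5), while the main one gave -0.20 ± 0.18. It was below the array median on all of these arrays and hardly followed the main one over the 16 lymphoid arrays (r = 0.21), while the other did (r = 0.951). Of 18 partners tested, 5 were called at an adjusted p of 0.05 (limma), where 26.0% of all genes were called, 14.1% higher and 11.9% lower. PTPN11 (1.25 ± 0.28), BCL10 (1.14 ± 0.23), a scaffold of NF-kappaB signaling, PLCG1 (0.67 ± 0.21) and RASA1 (0.38 ± 0.13) were higher and PLCG2 (-0.86 ± 0.27) lower in hemangiosarcoma lines. The count fell to 2 without OSCA75 or without OSCA71 and to 3 without OSCA59, and in each of these PLCG1, RASA1 and PLCG2 lost their calls.

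Breed had no part in the choice of the genes, so a test was possible there. None of the 7 passed the filter in golden retriever against other hemangiosarcoma lines. With all probe sets tested, differences ran from -0.16 (CD48) to 0.29 (LY9, p = 0.058 before adjustment, and 0.07 as the mean of its 3 probe sets), 0 of 7 had an unadjusted p under 0.05, and limma called 0 at an adjusted p of 0.1, as it did for all 9365 genes past the filter (0%), of which 0.117% were higher and 0.363% lower without overlap. CD48 read 4.05 to 4.61 in the 6 golden retriever lines and 3.998 to 5.08 in the 4 others, -0.16 ± 0.21 (SE), and at this brightness a difference was not detectable. Of 18 partners none was called, and 2 had an unadjusted p under 0.05, PTPN11 (-0.67 ± 0.25) and PLCG1 (-0.35 ± 0.16).

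The named genes whose pattern was most like that of CD48 over all 34 arrays were genes of white blood cells. Over the 34 arrays, which fall into a lymphoid and a cultured cluster, the highest correlations were with CLEC2D (r = 0.996), RAC2 (0.995), FERMT3 (0.994), CD37 (0.993) and the unnamed locus LOC475935 (0.992). CLEC2D encodes a ligand of an NK cell receptor, RAC2 a GTPase of blood cells, FERMT3 the integrin activator kindlin-3, and CD37 a tetraspanin of lymphocytes. Such a value mostly sets one cluster against the other. Over the 16 lymphoid arrays alone, where CD48 varied little, the nearest were the adhesion molecule ICAM2 (r = 0.857), EVI5 (0.825), LOC476816 (0.803), MILR1 (0.794) and UFSP2 (0.792).

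For the other genes the likeness was taken over the 16 lymphoid arrays, which share a platform and fall into tumor types. SLAMF1 was nearest to LAT (r = 0.976), LCK (0.966) and ISG20 (0.957), and SH2D1A to TRAT1, a T cell receptor adaptor (0.964), LOC607937 (0.937) and MICAL2 (0.933). SLAMF7 was nearest to LOC478984 (0.887), ITGAX, the integrin CD11c (0.870), and ALPK2 (0.868). LY9 was nearest to VPS52 (0.837), LIMK2 and NUGGC (0.803). CD244 and CD84 were above the array median on fewer than 6 of these arrays and were left out. Among the receptors themselves CD48 ran weakly with LY9 (r = 0.559) over the 16 arrays, each an array of another dog. With CD244, its receptor, r was -0.255, but CD48 varied little (SD 0.305) and CD244 was dim. That value cannot show whether ligand and receptor run together.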

How the data were processed

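RNA of 34 canine samples was labeled and hybridized to Canine_2 arrays. The authors' deposited values are log2 intensities from RMA (affy), with versions not given in the sources used here. The number of arrays limits the precision. Of 43035 probe sets, 175 controls were left out. Symbols came from the platform annotation, in which 29254 probe sets carry 1 symbol, 439 several and 13167 none, and gene order from the RefSeq gene table of assembly UU_Cfam_GSD_1.0. The files name no build, so no coordinates are given. LY9 was matched by symbol.

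Groups were taken from the sample labels and compared with limma 3.58.1 in R 4.3.3 (two-sided, Benjamini-Hochberg over all probe sets tested). The filter kept probe sets brighter than the array median on n or more of the arrays, n being the size of the smaller group. Thresholds were 0.001 for primary lymphoid against cultured samples, 0.1 for hemangiosarcoma against hematoma and between breeds, and 0.05 otherwise. SE of the SLAM genes come from the plain 2-group model, those of tested genes from limma. The text names all members, up to 6 called partners with the largest differences per comparison (and all of a count of 5 or fewer), and the nearest genes by Pearson r with an SD of at least 0.5. Other genes (F11R, TAGLN2, PIK3R1, CD2 between lymphomas, FYN and SH2D1B between classes, and single markers) were chosen after their values were seen. Members and lists were chosen with earlier results of these data known. Fits were tested on simulated data. A sample hybridized to 2 chips was not told apart here, and the highest correlation between arrays was 0.985. Plots used matplotlib 3.10.9 (Python 3.11.15).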

Additional observations from a re-analysis of the deposited data

Results flagged for a closer look

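Of 52 groups of 5 to 10 arrays examined over the 13 probe sets of the SLAM genes, 2 held an array far from the others of its group, where chance flags about 1 in 20 groups. The second CD48 probe set read 10.539 in the T-zone lymphoma Fire, and the other 5 T-zone lymphomas read 11.507 to 12.033. The main CD48 probe set was also lowest in Fire (11.45), the array with the lowest MS4A1 of its group. The actin control read 3.30 in Fire and 4.03 in Thunder, against -0.31 to -0.05 in the remaining T-zone lymphomas. The part of either in the CD48 value was not tested. The flat LY9 probe set read 4.454 in the osteosarcoma line OSCA20, and 4.984 to 5.144 in the other 4 osteosarcoma lines, all below the array median.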

How the results depend on the processing

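No paired analysis was possible because each dog or cell line is named on 1 array only. Alternatives were no filter, centering or quantile normalization of the arrays, a trend with a robust prior, array weights, 1 fit over all arrays, another or the mean probe set per gene, unlogged means, subsets of samples and leaving out arrays in turn. No difference of a SLAM gene that was named as not overlapping reversed. Primary lymphoid against cultured samples gave 12 to 16 called partners and T-zone against diffuse large B cell lymphoma 10 to 13, with 10 to 11 when 1 array was left out. Between leukemia and lymphoma, calls over all probe sets rose most after quantile normalization, with array weights and in 1 fit over 34 arrays. There the count of called partners was 2, 2 and 3 in that order, and 0 in the other settings. Between hemangiosarcoma and osteosarcoma it was 10 with the probe set of highest variance, 2 in 1 fit over 34 arrays and 2 to 5 without 1 osteosarcoma line, against 5 as reported and 4 to 6 otherwise. The cause was not tested. SLAMF7 between these lines was 0.22 as the mean of its probe sets, against -0.20. SH2D1A between primary lymphoid and cultured samples was 5.04 with unlogged means. Values below the array median limit CD244, CD84 and all SLAM genes in cultured cells.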
